A study of Mus musculus with 36 samples.

Results

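The mouse macrophage line RAW264.7 was given the 15-mer peptide 65–79*SE together with Il-4, and was compared with PBS cells in replicates 4 to 6. The comparison was chosen by the sample labels: 3 libraries of 65–79*SE with Il-4 and 3 PBS libraries of the Il-4 count table, which are 6 of the 36 libraries of the series. SE replicate 4 stood apart from SE replicates 5 and 6, and the counts, the lists and the leading genes are given with and without it.

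The study asked whether peptides of the third allelic hypervariable region of HLA-DRβ chains alter macrophage polarization without antigen presentation. 65–79*SE (65-79*0401 on the labels) carries the shared epitope coded by risk alleles, and 65–79*PE (65-79*0402) carries the protective epitope. Peptide was added at 100 μg/ml and Il-4 at 5 ng/ml for 72 h, with a medium change at 48 h, and RNA-seq reads were counted per gene. The PBS libraries carry Il-4 in their titles, whereas their treatment label reads PBS only and the protocol speaks of cells with or without the cytokine. All libraries came from 1 cell line, and nothing in the labels ties a replicate number of one group to that of another.

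Il-4 binds its receptor on macrophages and leads to phosphorylation of the transcription factor Stat6, which enters the nucleus and binds palindromic DNA sites. The state that follows is called M2, and is known for C-type lectin receptors that bind sugars, for enzymes and transporters of arginine, and for repair factors. The opposite state, M1, follows IFNγ or bacterial endotoxin and is known for nitric oxide synthase, inflammatory cytokines and interferon-stimulated genes.

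Total counts ran from 17.05 to 21.08 M in the PBS libraries and from 21.05 to 26.35 M in the SE libraries, and a count of 0 allows a level of up to 0.111 to 0.166 CPM (reads of a gene scaled to a common library size by TMM; a floor of 3 counts, for counting error only). Mitochondrial rRNA moved with the replicate number in every group. It took 0.395 to 0.837% of the counts in replicate 4, 1.47 to 2.12% in replicate 5 and 6.03 to 6.46% in replicate 6. Of 20 macrophage identity genes 19 could be tested, and their mean level lay between 7.39 and 7.72 log2 CPM in PBS and in SE replicates 5 and 6, against 6.96 in SE replicate 4. Markers of other cell types were low. All 8 epithelial markers were at 0 counts in the 9 libraries of replicates 4–6, and the 8 fibroblast markers summed to 0.09 to 0.72 CPM. The 8 T cell markers, 4 of them at 0 throughout, summed to 7.29 to 8.96 CPM in PBS, to 15.2 in SE replicate 4 and to 6.97 and 7.55 in the other SE libraries, nearly all of it from Lck. The 8 B cell markers, 3 of them at 0, summed to 36.3 to 57.3 CPM in PBS and to 9.46, 28.2 and 25.3 CPM in SE replicates 4, 5 and 6, nearly all of it from Ighm. The 8 endothelial markers, 1 of them at 0, summed to 5.19 to 10.9 CPM in PBS and 7.85 to 10.5 CPM in SE. Their part in the results was not tested.

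65–79*SE with Il-4 was first compared with PBS. Of 13472 genes tested, 141 were called (1.05%) at an adjusted p under 0.05 (edgeR's quasi-likelihood test with Benjamini-Hochberg adjustment) and a fold change over 1.5. They were 105 genes that rose (0.779%) and 36 that fell (0.267%). The balance of rises over falls rested on the fit, with 221 rises and 226 falls when the replicate number was a block, 40 and 5 when the 6 libraries were fitted alone, and 41 and 9 without PBS replicate 5. The rises were the larger changes. Of the 105, 25 rose by 4-fold or more and 45 by 2- to 4-fold, whereas 1 of the 36 fell by 4-fold or more and 25 fell by less than 2-fold. The median log2 fold change over all genes was -0.01. Without SE replicate 4, 128 of 13672 genes were called (0.936%), 105 higher (0.768%) and 23 lower (0.168%), and 84 of the genes called higher and 18 of those called lower were shared with the full set of libraries. Peptide and cytokine came together in the SE libraries, so that their parts in this comparison cannot be told apart.

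Genes of the Il-4 response rose. Of 40 such genes 24 had enough counts to be tested, 13 of them rose and none fell, with a median log2 fold change of 1.57, against -0.01 for all genes. Without SE replicate 4, 16 rose and the median was 1.68. In 18 of the 24 every SE library lay above every PBS library, against 11.3% of all genes tested. The mean level of the 24 genes was 1.31 to 1.35 log2 CPM in the PBS libraries, against 3.48, 3.71 and 3.80 in SE replicates 4, 5 and 6. The PE libraries, which carry Il-4 too, were at 3.57, 3.50 and 3.61 log2 CPM, within the SE range. Every SE library lay more than 2 log2 units above every PBS library. Some members passed the count filter only through the libraries with Il-4, among them Mgl2, Arg1, Cish and Slc7a2. These had 7, 3, 3 and 0 counts in the PBS libraries together, so they could hardly come out other than as rises. They are part of the counts, the medians and the mean levels given here, which are therefore no independent evidence of direction for them.

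Lectin receptors of M2 macrophages were among the list's rises. Mgl2, a galactose-type lectin on chromosome 11 (GRCm38 chr11:70130329-70137550, plus strand), was measured at 0.110, 0 and 0.249 CPM in PBS replicates 4, 5 and 6 and at 22.3, 26.9 and 31.2 CPM in SE. The groups were far apart and the log2 fold change was 7.74 ± 0.38 (SE, adjusted p = 1.19e-05, edgeR), or 7.86 without SE replicate 4. Mrc1, the mannose receptor, had 1.66, 1.40 and 1.79 CPM in PBS and 14.3, 34.8 and 38.6 CPM in SE. The groups did not overlap, and SE replicate 4 was the lowest of the SE libraries. The log2 fold change of Mrc1 was 4.17 ± 0.36 with this library (adjusted p = 0.000355, edgeR) and 4.50 ± 0.14 without it. Clec10a, the sister gene of Mgl2, rose from 14.8, 22.6 and 24.9 CPM to 46.4, 63.8 and 73.1 CPM, a log2 fold change of 1.55 ± 0.21 (adjusted p = 0.00648, edgeR), or 1.72 without SE replicate 4. Mgl2 and Clec10a are close copies. The study counted uniquely aligned reads alone, so reads that match both genes would not have been counted. Clec7a, the β-glucan receptor dectin-1, had 25.4, 17.8 and 13.2 CPM in PBS and 46.9, 45.3 and 46.5 CPM in SE, where the SE libraries were nearly equal.

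Genes of arginine handling rose from near 0. Arg1, arginase 1 and a common M2 marker (chr10:24915221-24927484, minus strand), was counted 3 times in the PBS libraries together and 495 times in SE, with 9.28, 5.92 and 6.47 CPM in SE replicates 4, 5 and 6. The ratio was 139 (95% exact counting interval 47.3 to 676), or 119 (40.5 to 583) without SE replicate 4. Slc7a2, a transporter of arginine into the cell (chr8:40862396-40922308, plus strand), had no count in any PBS library and 22.2, 8.44 and 8.03 CPM in SE. It was at least 247-fold higher, against a floor of 3 counts over the PBS group, and SE replicate 4 had the highest level. Without that library Slc7a2 was at least 160-fold higher. Of the other common M2 markers, Chil3 (Ym1) reached 0.0451 CPM in SE replicate 4 and was at 0 in the other 5 libraries, and Ccl17 was at 0 counts in all. These 2 markers were under the floor in both groups and give no fold.

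Feedback, transcription and matrix genes of the list rose as well. Cish, an inhibitor of cytokine receptor signalling, had 3 counts in PBS and 365 in SE, at 3.47, 5.63 and 6.82 CPM. The ratio was 102 (95% exact counting interval 34.8 to 499), or 119 (40.3 to 581) without SE replicate 4. Cish was the single gene of 15 tested in the Il-4 receptor and signalling list that was called. Egr2, a transcription factor of M2 macrophages, rose from 2.15, 1.45 and 1.29 CPM to 5.23, 5.26 and 5.67 CPM (log2 fold change 1.72 ± 0.21, adjusted p = 0.00417, edgeR). Mmp12, the macrophage elastase, rose from 0.883, 0.900 and 0.299 CPM to 24.4, 21.4 and 19.5 CPM, a log2 fold change of 4.97 ± 0.29 (adjusted p = 2.8e-05, edgeR). Neither gene had SE values that overlapped PBS, and without SE replicate 4 the log2 fold changes of Egr2 and Mmp12 were 1.75 and 4.89. The remaining called members were Flt1, Itgax, Tmem26 and Cd36, with log2 fold changes of 2.75, 2.61, 1.41 and 1.32. The list members Irf4, Batf3 and Socs1 did not pass the test, with adjusted p-values of 0.0664, 0.0937 and 0.142 (edgeR), and Il1rn had a log2 fold change of -0.21 (adjusted p = 0.395, edgeR).

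**Figure D1:**
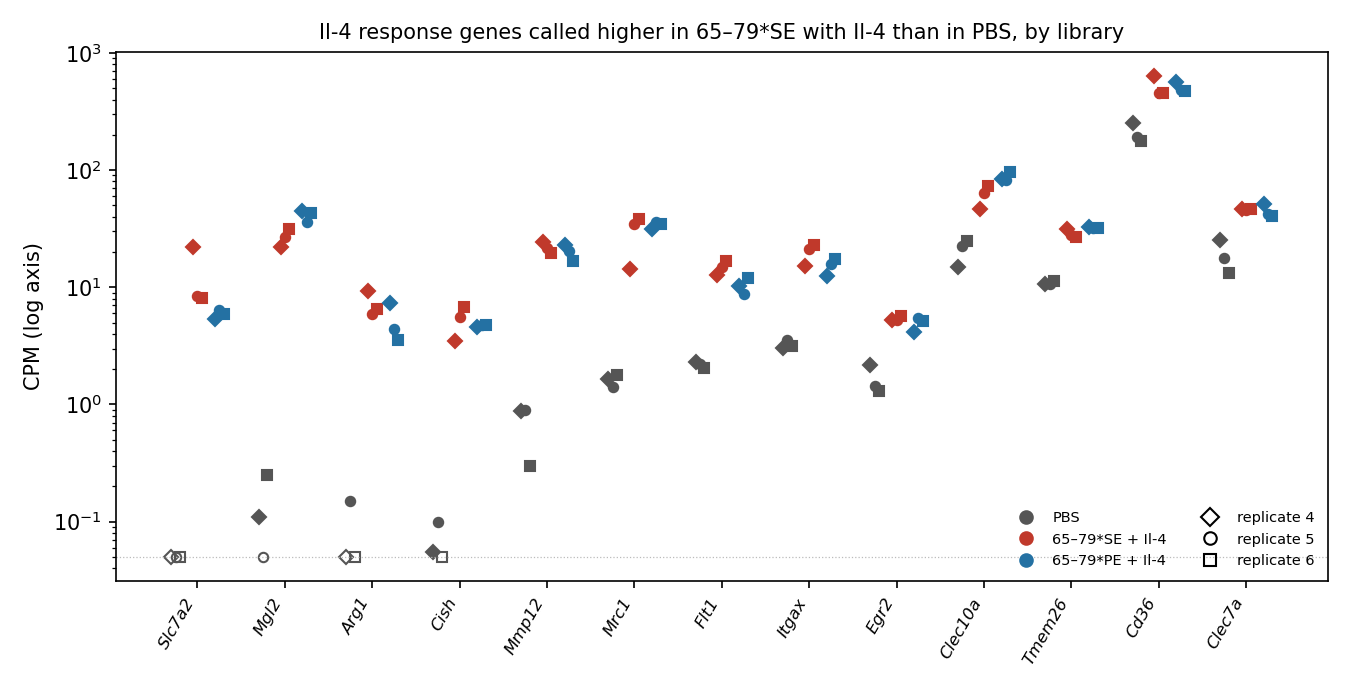
CPM (log axis) of the 13 Il-4 response genes called higher, by library: PBS in grey, 65–79*SE with Il-4 in red, 65–79*PE with Il-4 in blue, with a symbol for each replicate. Open symbols on the dotted line stand for libraries at 0 or under 0.05 CPM and are drawn at 0.05 CPM. SE and PBS points do not overlap in any of the 13 genes, and SE replicate 4 is the lowest SE point in Mrc1 (14.3 CPM) and the highest in Slc7a2 (22.2 CPM).

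Stat6 is known to bind a palindrome, the letters TTC and GAA with 4 bases of any kind between them, which reads the same on both strands. It was looked for in RefSeq promoter windows of GRCm38.p6, from 250 bases before to 50 bases after the gene start, where 8.01% of all 27025 genes with a window hold it. Windows were at hand for 11 of the 13 called Il-4 response genes and 4 of the 11 genes held the motif: Cd36, Clec7a, Itgax and Tmem26. Windows were held for 71 of all 105 genes that rose, fewer than the 80% needed, so no share is given for them. Stretches before the gene start are shown as examples for 5 genes called higher, with the motif in capitals. Clec7a and Itgax belong to the Il-4 list. Other called genes, Ms4a7 and Tfec among them, held such a stretch too, and the levels of Lair1 are not given here.
Clec7a (chr6:129472871-129472940, minus strand): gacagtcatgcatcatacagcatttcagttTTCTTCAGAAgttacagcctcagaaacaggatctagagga
Itgax (chr7:128129393-128129462, plus strand): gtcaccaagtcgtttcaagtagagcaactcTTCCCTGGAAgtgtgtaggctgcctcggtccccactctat
Tlr8 (chrX:167264367-167264436, minus strand): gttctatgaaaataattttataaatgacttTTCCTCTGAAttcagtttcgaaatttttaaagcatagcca
Ppp2r3a (chr9:101251900-101251969, minus strand): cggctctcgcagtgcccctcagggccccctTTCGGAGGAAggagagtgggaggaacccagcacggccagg
Lair1 (chr7:4063246-4063315, minus strand): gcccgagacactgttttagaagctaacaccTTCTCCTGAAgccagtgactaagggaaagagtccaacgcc
The motif began 131 or 125 bases before the start in Clec7a, which has 2 annotated starts, and 127, 77, 107 and 81 bases before it in Itgax, Tlr8, Ppp2r3a and Lair1. The windows of Mgl2, Arg1, Mrc1, Cish and Mmp12, which rose more, did not hold these letters.

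Outside the Il-4 list Igf1 rose. Igf1, insulin-like growth factor 1, had 28.6, 28.4 and 31.02 CPM in PBS and 110, 216 and 279 CPM in SE, a log2 fold change of 2.78 ± 0.29 (adjusted p = 0.00141, edgeR). SE replicate 4 was again the lowest SE library and lay well above PBS, and without it the log2 fold change of Igf1 was 3.08. In the list of complement and Fc receptor genes 3 of 14 tested rose, with a list median of 0.03. Itgax, the integrin αX chain of complement receptor 4 (CD11c) and a member of the Il-4 list too, rose from 3.04, 3.55 and 3.14 CPM to 15.3, 21.3 and 22.7 CPM. C3 and C3ar1, complement component 3 and the receptor for its fragment C3a, rose by 2.12 and 0.90 on the log2 scale.

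Cd274, the checkpoint ligand PD-L1, had 8.89, 10.3 and 10.95 CPM in PBS and 49.6, 33.3 and 31.4 CPM in SE. SE replicate 4 was the highest, and the log2 fold change was 1.92 ± 0.18 with it (adjusted p = 0.00072, edgeR) and 1.69 ± 0.12 without it. Cd274 was the one gene called of 18 tested in the IFNγ response list, whose median log2 fold change was 0.01. Tlr8, an endosomal receptor for RNA, had 4.30, 4.50 and 4.38 CPM in PBS and 8.38, 20.1 and 21.2 CPM in SE, and SE replicate 4 was the lowest SE library, above every PBS library. The rise of Tlr8 was called (adjusted p = 0.0139, edgeR). Cp, the copper carrier ceruloplasmin, rose from 15.0, 17.3 and 19.1 CPM to 56.7, 51.3 and 46.7 CPM. Ppp2r3a, a regulatory subunit of protein phosphatase 2A, rose from 11.3, 15.1 and 12.6 CPM to 47.0, 41.1 and 41.6 CPM. The SE libraries of Cp and Ppp2r3a lay close together and above every PBS library. F10, coagulation factor X and a member of the endotoxin response list, rose from 6.95, 7.20 and 7.32 CPM to 12.2, 20.1 and 23.3 CPM.

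Osteoclast genes Mmp9, a gelatinase, and Atp6v0d2, a subunit of the proton pump, were called of 18 tested (median log2 fold change 0.07). Mmp9 had 0.993, 0.800 and 0.598 CPM in PBS and 9.69, 2.78 and 3.31 CPM in SE, with SE replicate 4 the highest. Its log2 fold change was 2.72 ± 0.49 with this library (adjusted p = 0.029, edgeR) and 1.93 without it (adjusted p = 0.00596, edgeR). Among macrophage identity genes Adgre1 (F4/80) rose from 158, 143 and 131 CPM to 301, 293 and 274 CPM and Lgals3 (galectin-3) from 1773, 1905 and 2016 CPM to 3060, 2927 and 3035 CPM. The list's median was -0.18, and no member fell beyond the thresholds.

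Il4i1, an enzyme that oxidizes aromatic amino acids, Lipn, a lipase, and Azin2, an antizyme inhibitor, were named after their values were seen. Lipn rose from 0.442, 0.350 and 0.398 CPM to 10.4, 17.1 and 16.8 CPM. Il4i1 rose from 1.32, 1.05 and 0.896 CPM to 4.78, 12.03 and 13.3 CPM, and Azin2 from 1.16, 1.45 and 1.05 CPM to 3.06, 6.92 and 7.52 CPM. In each of the 3 genes SE replicate 4 lay between PBS and the other SE libraries.

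Receptors, growth signalling and cell cycle genes were among those that fell. Il17ra, the receptor chain for interleukin 17, had 64.6, 51.1 and 43.4 CPM in PBS and 18.2, 20.0 and 20.8 CPM in SE (log2 fold change -1.43 ± 0.15, adjusted p = 0.00135, edgeR). Dusp6, a phosphatase that switches off the kinase Erk, had 19.6, 17.9 and 14.0 CPM in PBS and 7.30, 6.14 and 5.52 CPM in SE (log2 fold change -1.44 ± 0.16, adjusted p = 0.00236, edgeR). Tlr2, the receptor for bacterial lipoproteins, had 214, 148 and 161 CPM in PBS and 77.7, 88.8 and 96.2 CPM in SE (log2 fold change -0.995 ± 0.14, adjusted p = 0.0102, edgeR). In these 3 genes each SE library lay under each PBS library, and the fall was called without SE replicate 4 as well.

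The rest of the 12 largest falls of at least 10 CPM were Col18a1, Sorl1, Wdr90, Gfod1, Lyl1, Cdt1, Ints1, Pkmyt1 and Polrmt, with log2 fold changes from -1.14 to -0.76. Cdt1, which licenses DNA replication origins, had 70.6, 61.6 and 69.0 CPM in PBS and 32.3, 39.9 and 43.0 CPM in SE. Pkmyt1, a kinase that holds back entry into mitosis, had 16.7, 15.6 and 16.4 CPM in PBS and 9.19, 10.03 and 9.63 CPM in SE. Neither gene overlapped between the groups. Wdr90 and Polrmt lost their calls whichever 1 of the 6 libraries was left out.

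Immediate early genes, which answer growth signals within minutes, went both ways. Of 24 tested, Egr2 and Dusp4 rose, Egr1 and Dusp6 fell, and the median log2 fold change was -0.39. Egr1 had 5.74, 5.60 and 6.47 CPM in PBS and 3.24, 2.85 and 3.46 CPM in SE, and Dusp4 had 75.0, 84.7 and 82.3 CPM in PBS and 176, 133 and 136 CPM in SE. In the stress response list Slc7a5, a transporter of large neutral amino acids, had 140, 143 and 153 CPM in PBS and 91.8, 89.4 and 106 CPM in SE, and was called among 23 genes tested. Without SE replicate 4 its adjusted p was 0.0502 (edgeR) and it was not called. In the endotoxin response list Tnfsf9, a ligand of the TNF family, fell besides Tlr2, by 0.74 on the log2 scale.

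Of 52 named genes that were called, 25 kept their call whichever of the 6 libraries was left out, and 27 lost it without at least 1. Among those that kept it were Mgl2, Arg1, Slc7a2, Cish, Mmp12, Mrc1, Clec10a, Egr2, Itgax, Flt1, Tmem26, Igf1, Cd274, Cp, Ppp2r3a, Adgre1, C3ar1, Il4i1, Lipn, Il17ra, Dusp6, Tlr2, Pkmyt1, Col18a1 and Zfp608. The calls of Tlr8, F10, Lyl1, Egr1 and Tnfsf9 were lost without PBS replicate 4, 5 or 6 or SE replicate 5, and that of Sorl1 without any PBS library or SE replicate 6. Those of Mmp9, Azin2, Layn, Ryr1 and Slc31a2 were lost without any 1 PBS library, and those of Gm26514, Lat and Slc7a5 without any PBS library or SE replicate 4 or 5, and that of Pgf without any PBS library or SE replicate 4. Lgals3 and C3 lost theirs without PBS replicate 4 or 5 or SE replicate 5, Clec7a without PBS replicate 5 or SE replicate 5, and Gfod1 and Rnase4 without PBS replicate 4 or 5. Atp6v0d2, Cd36 and Dusp4 depended on PBS replicate 5, Cdt1 on PBS replicate 4 and Ints1 on SE replicate 5.

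**Figure D2:**
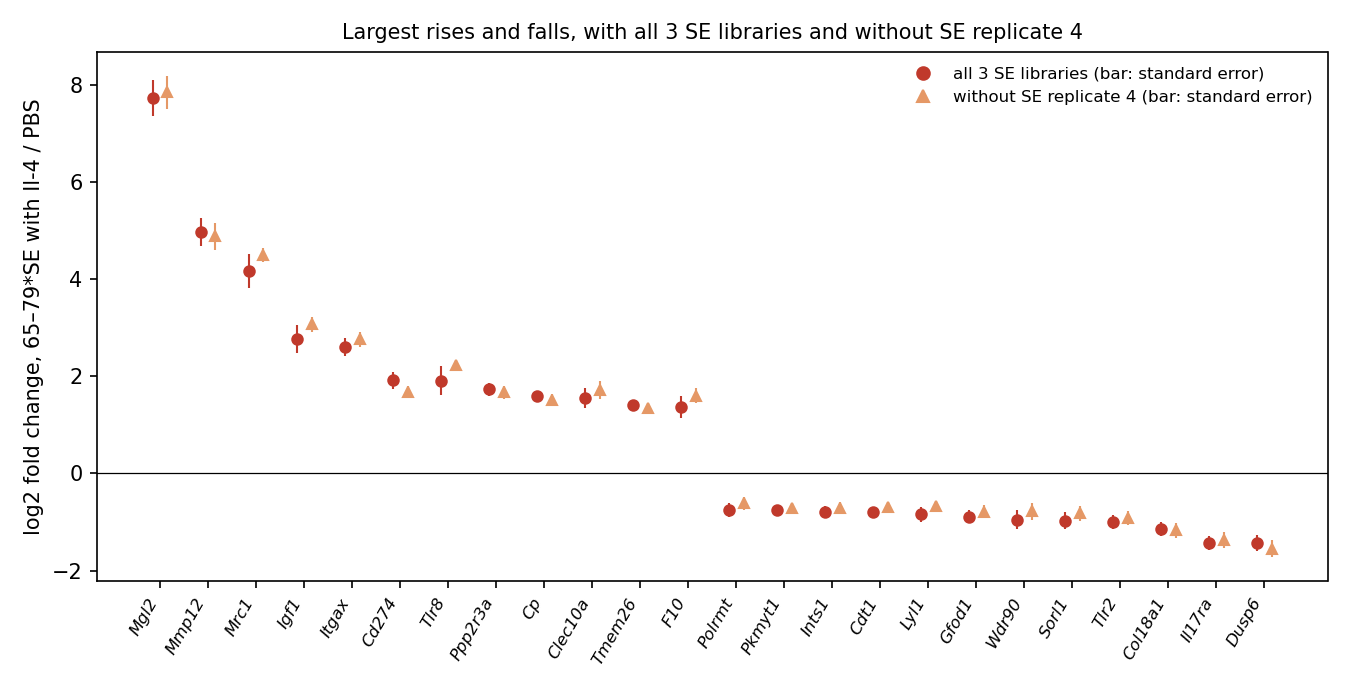
Log2 fold change of 65–79*SE with Il-4 over PBS for the 12 largest rises and 12 largest falls of at least 10 CPM, with all 3 SE libraries (red circles) and without SE replicate 4 (orange triangles). Bars are standard errors of the fit. All 24 genes keep their sign, from 7.74 for Mgl2 to -1.44 for Dusp6.

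SE replicate 4 was the library that stood apart. Among 8641 genes of at least 10 CPM, it lay more than 1 log2 unit above both other SE libraries in 63 genes and as far below them in 148. The other 8 libraries of replicates 4–6 stood so far above their group in 0 to 15 genes and below it in 0 to 27 genes. Of the 10 genes with the largest gap above, Irf7, the regulator of type I interferon genes (chr7:141262706-141266481, minus strand), was measured at 200, 37.2 and 36.7 CPM in SE replicates 4, 5 and 6 and at 56.9, 61.1 and 58.4 CPM in PBS. The SE libraries thus lay on both sides of PBS. Nos2, inducible nitric oxide synthase, was measured at 55.9, 11.2 and 9.78 CPM in SE and at 6.29, 6.10 and 2.34 CPM in PBS. Acod1, which makes itaconate, was measured at 82.4, 16.4 and 20.4 CPM in SE and at 13.2, 11.4 and 12.2 CPM in PBS.

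Ptgs2 (cyclooxygenase 2), Casp4 (the caspase that senses endotoxin), Car6, Ddx60, Ifi202b, Lars2 and Gm15564 made up the rest of the 10. Casp4 was at 159 CPM in SE replicate 4 and at 43.8 and 40.7 CPM in the others, and Ptgs2 was at 49.2 CPM against 12.1 and 10.9. In Lars2 and Gm15564 a PBS library, replicate 6, was higher than SE replicate 4, with 595 and 38.3 CPM. The 5 genes farthest below were Cx3cr1 (the fractalkine receptor), mt-Rnr1, P2ry6 (a receptor for UDP) and the histone genes Hist1h4b and Hist1h3d. mt-Rnr1 is a mitochondrial rRNA, and the share of these was lowest in replicate 4 of every group, so its low level was not particular to this library. Cx3cr1 was at 5.45 CPM in SE replicate 4, at 29.5 and 28.2 CPM in the other SE libraries and at 99.5, 61.1 and 35.5 CPM in PBS. Histone transcripts of this kind lack a poly(A) tail, and their family holds near-identical copies, so that single members are uncertain.

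**Figure D3:**
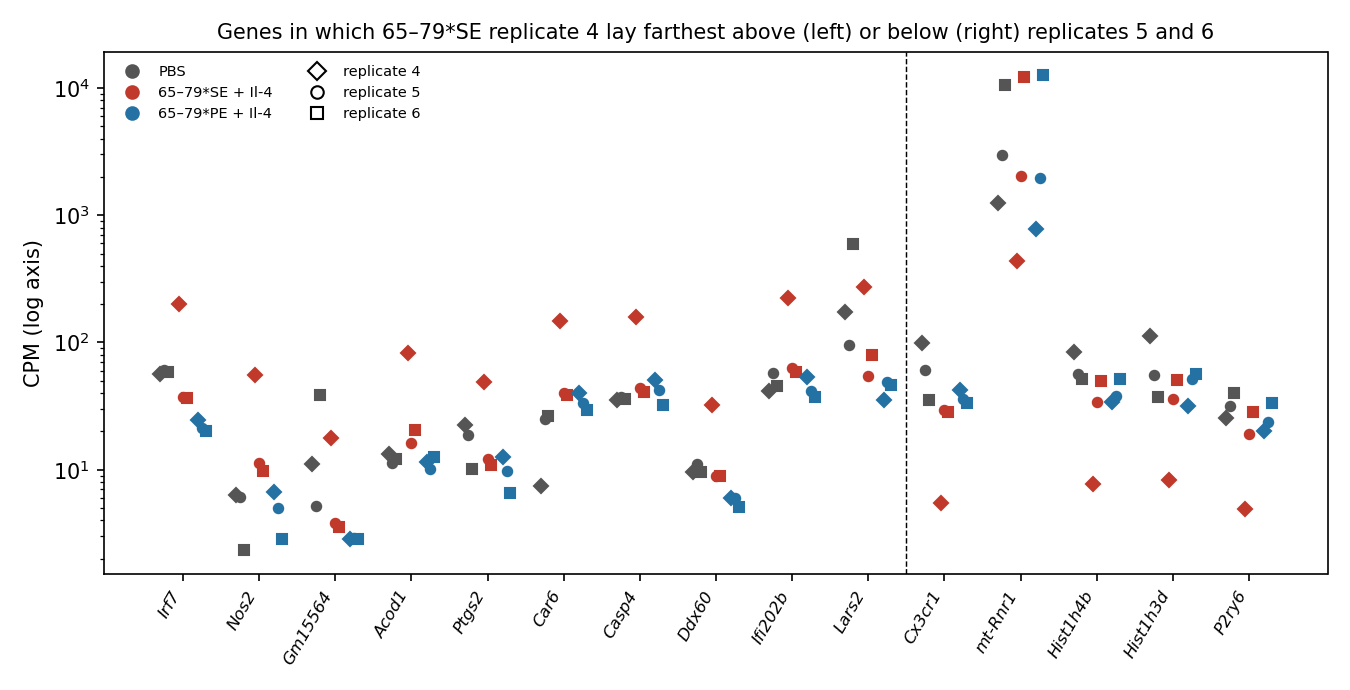
CPM (log axis) by library for the 10 genes in which SE replicate 4 lay farthest above, and the 5 in which it lay farthest below, SE replicates 5 and 6 (a dashed line separates both sets of genes). Colours and symbols mark treatment and replicate. The red diamond of SE replicate 4 is the highest of the 9 points for 8 of the 10 genes on the left, but not for Gm15564 and Lars2, where PBS replicate 6 is higher (38.3 and 595 CPM).

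Genes of the type I interferon list moved with this library. Its mean level over 29 genes was 4.02, 4.14 and 4.23 log2 CPM in PBS and 5.18, 3.75 and 3.83 log2 CPM in SE replicates 4, 5 and 6. The PE libraries, at 3.33, 3.33 and 3.21 log2 CPM, lay below each SE library. SE replicate 4 was above both other SE libraries in 29 of 29 genes, against 40.7% of all genes tested. With all 3 SE libraries 22 of the 29 had a positive log2 fold change, the median was 0.32 and none was called. Without SE replicate 4, 1 of the 29 was positive, the median was -0.31, and Irf7 and Ifi44l fell, by 0.67 and 1.26 on the log2 scale with adjusted p-values of 0.0248 and 0.0023 (edgeR). Leaving out the library that was highest in all 29 lowers their SE means, so this shift follows in part from that choice. Ifi44l had 19.6, 21.9 and 25.5 CPM in PBS and 29.9, 8.88 and 9.73 CPM in SE. In Ifi44, with 134, 144 and 167 CPM in PBS and 365, 114 and 108 CPM in SE, and in Parp14, with 71.8, 76.9 and 76.8 CPM in PBS and 178, 80.8 and 82.5 CPM in SE, no call was made either way.

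M1 markers moved with the same library. Of 9 marker genes 5 could be tested, none was called, and SE replicate 4 was the highest SE library in 5 of 5. Their mean level was 3.27, 2.73 and 2.38 log2 CPM in PBS, 3.81, 2.55 and 2.59 in SE and 2.13, 1.89 and 1.37 in PE. Nos2 had a log2 fold change of 2.39 ± 0.67 (adjusted p = 0.116, edgeR) with this library and 1.10 (adjusted p = 0.251, edgeR) without it. Tnf was at 72.1, 62.9 and 55.7 CPM in PBS and at 70.8, 36.5 and 34.6 CPM in SE. Ccl2 was at 30.3, 20.9 and 16.0 CPM in PBS and at 31.5, 27.6 and 25.3 CPM in SE. For Tnf, SE replicate 4 lay within the PBS range and the other SE libraries lay below it, and for Ccl2 the groups overlapped. Cxcl10 was at 2.54, 0.850 and 1.29 CPM in PBS and at 0.721, 0.407 and 0.502 CPM in SE, so that each SE library lay below each PBS library. Il23a was at 2.15, 1.60 and 1.195 CPM in PBS and at 5.27, 1.15 and 1.45 CPM in SE. Neither Cxcl10 nor Il23a was called, and Il1b, Il12a, Il12b and Il6 had too few counts to be tested. Il6 nevertheless reached 3.02 CPM in SE replicate 4, against 0.296 and 0.351 CPM in SE replicates 5 and 6 and at most 0.2499 CPM in PBS. Lcn2, the siderophore-binding protein lipocalin 2 of the endotoxin list, named after its values were seen, was at 30.3, 1.11 and 1.50 CPM in SE and at 0.221, 0.550 and 1.05 CPM in PBS.

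Targets of NF-κB, the transcription factor of inflammatory genes, were not called with all 3 SE libraries (31 tested, median 0.09), and SE replicate 4 was the highest SE library in 23 of the 31. Without it the median was -0.20 and Rel, a subunit of NF-κB, was called higher. Rel had a log2 fold change of 0.57 with this library, just under the fold threshold, and of 0.61 without it. Of 8 inflammatory chemokine genes tested none was called and 7 were highest in SE replicate 4. Ccl3 was at 324 CPM there, at 131 and 142 CPM in SE replicates 5 and 6 and at 152 to 170 CPM in PBS, and Ccl9 was at 402 to 632 CPM in SE and 346 to 463 CPM in PBS.

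Genes of DNA replication and mitosis ran the other way. The mean level of 30 genes was 6.87, 6.38 and 6.16 log2 CPM in PBS and 5.37, 6.18 and 6.11 log2 CPM in SE. SE replicate 4 was the lowest SE library in 29 of 30 genes, against 43.5% of all genes, and PBS replicate 4 was the highest PBS library of the list. The median log2 fold change was -0.60 with all libraries, -0.37 without SE replicate 4 and -0.30 without PBS replicate 4. Cdt1 was the one gene of the list that was called, with and without SE replicate 4. Histone genes took 0.338% of the counts in SE replicate 4, 0.631 and 0.557% in the other SE libraries and 0.509 to 1.55% in PBS.

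**Figure D4:**
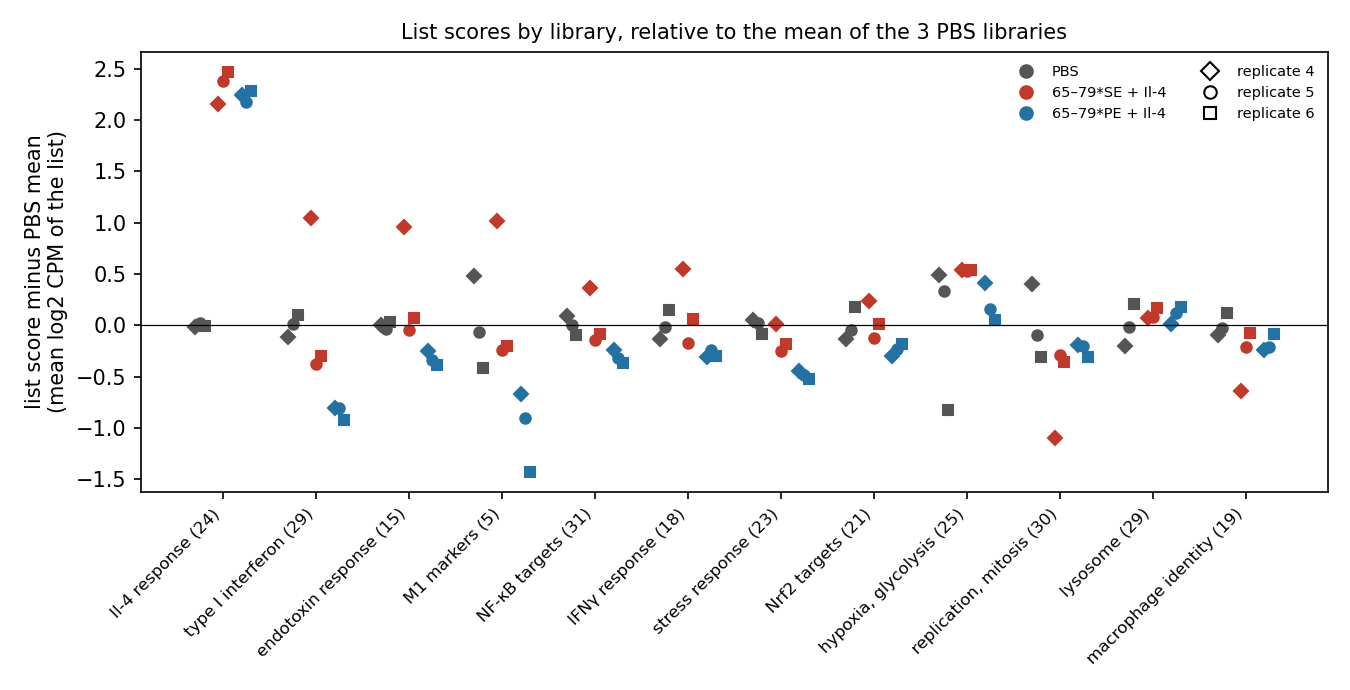
Mean log2 CPM of 12 gene lists in each of the 9 libraries of replicates 4–6, minus the mean of the 3 PBS libraries (number of genes in parentheses). For the Il-4 response the 3 SE points lie together above 2. For type I interferon, endotoxin, M1 and IFNγ lists SE replicate 4 (red diamond) lies above, and for replication and mitosis and macrophage identity below, SE replicates 5 and 6.

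Some genes, Il-4 response genes among them, were called only when SE replicate 4 was left out. They were picked for this, so their calls are no evidence apart from that choice. Ptgs1, cyclooxygenase 1, had 8.003, 7.40 and 6.72 CPM in PBS and 7.16, 20.4 and 25.3 CPM in SE replicates 4, 5 and 6. SE replicate 4 lay among the PBS libraries, and the gene was called without it (log2 fold change 1.63, adjusted p = 0.000383, edgeR) but not with it (1.26, adjusted p = 0.12, edgeR). Abcd2, a peroxisomal fatty acid transporter, likewise had 7.45, 9.14 and 7.32 CPM in PBS and 8.02, 23.3 and 22.1 CPM in SE. Myc and Pdcd1lg2 (PD-L2) were the other 2 list members called only without this library, with log2 fold changes of 1.02 and 1.97. Alox5, 5-lipoxygenase, had 22.4, 20.2 and 20.7 CPM in PBS and 3.56, 9.29 and 10.4 CPM in SE, and Marcksl1 had 57.2, 59.8 and 63.0 CPM in PBS and 55.3, 27.9 and 30.3 CPM in SE. Both fell without SE replicate 4, by 1.10 and 1.04 on the log2 scale. Arhgap31, a regulator of small GTPases, rose by 1.29 on that scale.

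The other lists showed few calls or none. Of 25 genes of hypoxia and glycolysis, 22 had positive log2 fold changes and none was called, with a median of 0.26. PBS replicate 6 was low on this list (6.42 log2 CPM, against 7.58 and 7.73 in PBS and 7.77 to 7.78 in SE), and without it the median was 0.10. Ldha, lactate dehydrogenase, was at 2178, 1887 and 1129 CPM in PBS and at 2108, 2105 and 1969 CPM in SE. No gene was called of 29 lysosomal genes (median 0.09), 23 sterol synthesis genes (-0.03), 21 Nrf2 targets (0.14), 11 cholesterol efflux genes (0.00) or 2 MHC class II genes (0.24). Cd74, the invariant chain of MHC class II, was at 179, 347 and 409 CPM in PBS and 347, 396 and 611 CPM in SE, and the groups overlapped.

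65–79*SE was then set beside 65–79*PE, the only comparison here in which both groups carry Il-4 on the treatment label. The peptides differ in residues of the same stretch of the HLA-DRβ chain. Of 13472 genes tested none was called (0%), with all SE libraries or without SE replicate 4, by edgeR's quasi-likelihood test. At an unadjusted p under 0.05 (edgeR) there were 1055 of 13472 genes, and 787 of 13672 without SE replicate 4. A share of about 0.05 of the genes would pass that line with no difference at all. The smallest adjusted p was 0.513 or 0.507 (edgeR). The 95% interval of the difference lay within 2-fold in either direction for 82.1% of genes, and for 119 of the 141 genes called against PBS (128 without SE replicate 4). A miss of the threshold does not show that the peptides acted alike, and for 22 of the 141 genes the interval reached 2-fold or beyond.

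Single genes are given next. Mgl2 was at 44.5, 36.1 and 42.8 CPM in PE, above each SE library, with a log2 difference (SE minus PE) of -0.62 (95% interval -1.09 to -0.15). Mrc1 was at 31.7, 36.3 and 34.8 CPM in PE, with a difference of -0.23 (-0.86 to 0.41), or 0.09 (-0.17 to 0.36) without SE replicate 4. Arg1 was at 7.34, 4.39 and 3.57 CPM in PE, overlapping SE, with a difference of 0.49 (-0.25 to 1.23). Mmp9 was at 1.06, 1.21 and 0.980 CPM in PE, below each SE library, with a difference of 2.26 (1.25 to 3.27), and 1.46 (0.92 to 2.00) without SE replicate 4. Rnase4, a ribonuclease, was at 12.4, 9.80 and 10.5 CPM in PE and at 5.09, 6.33 and 5.72 CPM in SE, with a difference of -0.93 (-1.30 to -0.57). Larger differences stood in inflammatory and interferon genes (Lcn2, Oasl2 and Rsad2 were named after their values were seen), with 4.27 (1.58 to 6.95) for Lcn2, 2.69 (1.12 to 4.25) for Oasl2, an interferon-induced gene, and 2.38 (0.91 to 3.84) for Nos2. Without SE replicate 4 the intervals of Irf7 (0.74, 0.49 to 0.99), Rsad2, an antiviral enzyme (1.09, 0.70 to 1.48), Oasl2 (1.38, 0.47 to 2.29), Lcn2 (1.19, 0.13 to 2.24) and Nos2 (1.08, 0.23 to 1.94) still lay above 0. No gene passed after adjustment over all genes (edgeR, smallest adjusted p as above), and the differences of the 5 genes given first had adjusted p-values from 0.513 to 0.868 (edgeR). The PE libraries are also compared with the same PBS libraries, so the contrasts against PBS share their controls. PE against PBS gave 302 called genes (2.24%).

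Lists of genes tied to 65–79*SE with Il-4 in the study were drawn from libraries that include these, and are no independent evidence of direction. Of the 20 tested on the list of higher genes 7 were called against PBS: Slc31a2, Ryr1, Layn, Mmp9, Lat, Pgf and Atp6v0d2. The list's median was 1.07 and, without SE replicate 4, 0.78 with 5 called. Pgf, placental growth factor, was at 0.552, 0.550 and 0.448 CPM in PBS and at 6.62, 2.63 and 2.91 CPM in SE, and Lat, an adaptor of T cell receptor signalling, was at 0.497, 0.200 and 0.349 CPM in PBS and at 2.16, 1.81 and 0.953 CPM in SE. Pgf and Lat were not called without SE replicate 4. Of the 8 tested lower genes Rnase4, Col18a1 and Zfp608 were called both ways, and none of the other members was. Zfp608 had 7.01, 9.05 and 6.52 CPM in PBS and 3.02, 3.26 and 3.06 CPM in SE.

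The same comparison in replicates 1–3, which share no library with replicates 4–6, gave 875 called genes of 14183 (6.17%). They were 280 higher (1.97%) and 595 lower (4.20%). This count comes from the fit of all 18 libraries, in which replicates 4–6 gave 313 called genes (175 higher, 138 lower). The 105 and 36 genes named next come from the fit of 9 libraries, so the overlaps set unlike fits side by side. Of the 105 genes that rose in replicates 4–6, 58 rose in replicates 1–3 as well, which is 55.2% of the 105 and 20.7% of the 280, and of the 36 that fell 14 fell there (38.9% of the 36 and 2.4% of the 595). The log2 fold changes of the 13 Il-4 response genes were all positive in replicates 1–3, among them Mgl2 at 7.55, Arg1 at 8.38 and Mrc1 at 4.41. In 1 gene, Gm26514, named after its values were seen, the calls were opposite, with a log2 fold change of 1.49 in replicates 4–6 and -3.31 in replicates 1–3.

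A direct test of the difference between the label sets found 622 genes at an adjusted p under 0.05 (edgeR, 4.39%), and 141 without SE replicate 4 (0.975%). No tested Il-4 response gene was among them with or without that library. In members near 0 in PBS the test could hardly find a difference. The standard error of the log2 difference was 1.79 for Arg1 and 1.25 for Cish, and far larger for Slc7a2. Of the 141 genes called in replicates 4–6, 17 that rose and 6 that fell were among the 622. With SE replicate 4 left out, 10 of the 105 called higher and 2 of the 23 called lower differed. Cdt1 and Pkmyt1, which fell in replicates 4–6, had log2 fold changes of 0.11 and 0.08 in replicates 1–3. Cp and Ppp2r3a rose more in replicates 4–6, by 1.59 and 1.73 on the log2 scale, than in replicates 1–3, where the values were 0.72 and 0.49. For these 4 genes the difference passed the test without SE replicate 4 as well, at adjusted p-values of 0.0359 to 0.037 (edgeR). No source used here says what else differed between the replicate sets, and its part was not tested.

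**Figure D5:**
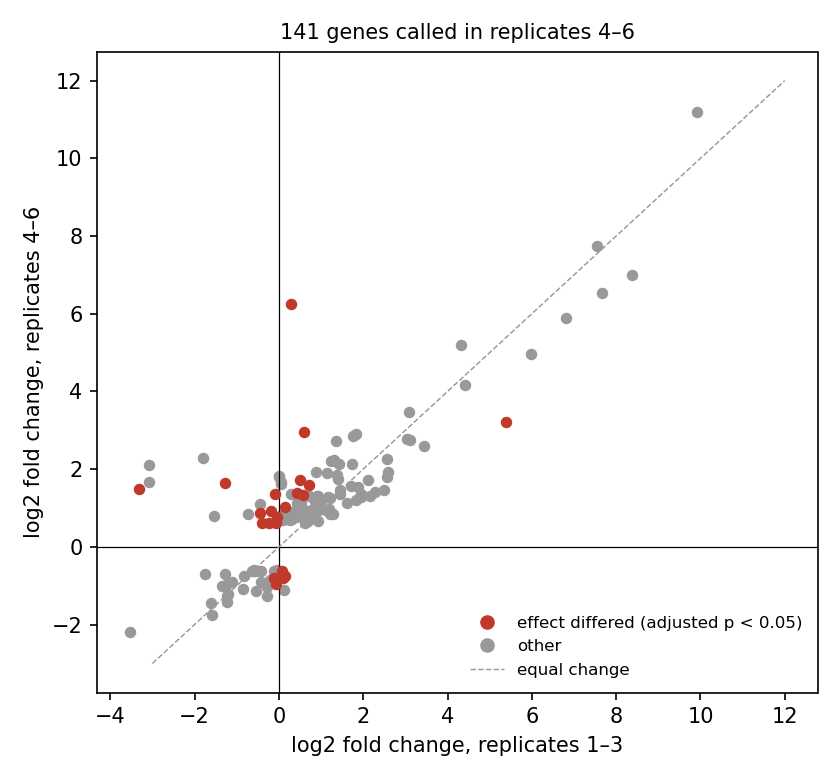
Log2 fold change of 65–79*SE with Il-4 over PBS in replicates 4–6 against that in replicates 1–3 for the 141 genes called in replicates 4–6, with the line of equal change dashed. Red marks the 23 genes whose effect differed between the replicate sets. Most points lie in the upper right or lower left, and 1 gene, Gm26514, was called in opposite directions (1.49 and -3.31).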

How the data were processed

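Sources and values: the authors isolated RNA with Trizol, made libraries from 200 ng of total RNA, and deposited raw read counts, as whole numbers for each gene, in 1 table of 18 libraries. Per the labels, the processing used featureCounts, DESeq2 1.16.1 and R 3.4.1 with GRCm38.p5. Neither the aligner nor whether counting used strand is given in the sources used here, and 70 of the 137 called genes with a position overlap another annotated gene. Of 49568 gene names, 47214 (95.25%) matched GENCODE M21 of GRCm38, from which positions come, and 26 were dates made by a spreadsheet. The table of the IFNγ series was not used here.

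Counts of the 9 libraries of replicates 4–6 were fitted in R 4.3.3 with edgeR 4.0.16 (glmQLFit and glmQLFTest, TMM, filterByExpr), with a Benjamini-Hochberg adjusted p under 0.05 and a fold change over 1.5. One estimate of the spread served the 3 groups, and the set without SE replicate 4 was fitted as a model of its own. Interactions and the comparison in replicates 1–3 were fitted on all 18 libraries in 6 groups. Where a sentence gives ± after a log2 fold change, it is the standard error of the fit. List levels are means of log2 CPM with a prior count of 2. The study speaks of biological replicates from 2 independent experiments of 1 cell line, and no source ties libraries to separate cultures of this set, so p-values measure only the spread between these samples. The code was tested on simulated data.

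Named genes followed a rule: the study's PCR markers, the 12 largest rises and falls of at least 10 CPM without overlap of groups, up to 4 called members of each list (or the 2 most abundant), the 10 and 5 genes with SE replicate 4 farthest above and below, and 6 genes called only without it. Other called list members are named in counts. The members and lists were chosen with earlier results of these data known. Alternatives were RLE, DESeq2 1.42.0, limma 3.58.1 with quality weights, other filters, other library sets, a replicate block and leaving out each library.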

Additional observations from a re-analysis of the deposited data

Results flagged for a closer look

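The effect of 65–79*SE with Il-4 against PBS differed between replicates 4–6 and replicates 1–3 in 622 genes, by a test of the difference itself (edgeR, adjusted p under 0.05). Among the genes described above, the difference (replicates 4–6 minus replicates 1–3, log2) was 1.24 for Ppp2r3a, 0.86 for Cp, -0.91 for Cdt1 and -0.84 for Pkmyt1, and each of these 4 passed without SE replicate 4 as well. It was -0.88 for Wdr90, -0.67 for Ints1, -0.90 for Polrmt, 1.14 for Parp14 and 2.37 for Pgf, and none of these 5 passed without SE replicate 4 (edgeR, adjusted p from 0.0564 to 0.0933). Groups of 3 libraries were too small for a search for single outlying values.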

How the results depend on the processing

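Of 141 called genes (105 higher, 36 lower), the count was within 1.5 times with RLE factors (145), at least 10 counts in every library (125), robust dispersion (138), protein-coding genes alone (110), no fold threshold (149), no mitochondrial rRNA genes (150, chosen after seeing the data) and the 17 libraries left without SE replicate 4 (144, likewise). It was 424 (264 higher, 160 lower) with DESeq2, 697 (377 and 320) with no low count filter, 45 (40 and 5) with the 6 libraries alone, 313 (175 and 138) with all 18 libraries and 471 (267 and 204) with limma voom quality weights, where SE replicate 4 had the lowest weight (0.225). Leaving out 1 library gave 50 to 138 called genes, 41 to 105 higher and 9 to 36 lower: 68 without PBS replicate 4, 50 without PBS replicate 5, 77 without PBS replicate 6, 128 without SE replicate 4, 81 without SE replicate 5 and 138 without SE replicate 6. With the libraries compared alone and without SE replicate 4 it was 71 (63 and 8), an alternative chosen after seeing the data. The cause of these changes was not tested. Il-4 response genes called ranged from 8 to 20.

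With the replicate number as a block, 447 genes were called (221 higher, 226 lower), or 414 (215 and 199) without SE replicate 4, and 2679 genes differed between the replicate sets, against 622 (141 without SE replicate 4). All 141 genes called in the main fit were among the 447. No label ties the numbers to a shared culture or day. Deviations of PBS and SE libraries of the same number correlated at 0.016, -0.154 and 0.355 for replicates 4, 5 and 6, so that not every pair was over 0.1 and the numbers were not taken to pair the groups compared. Each SE deviation was taken from a group mean that holds SE replicate 4, so these values cannot show that the numbers were unpaired. Deviations of PBS and PE correlated at 0.612, 0.303 and 0.682, and those of SE and PE at 0.544, 0.038 and 0.712. A share of the spread thus did follow the number. In 8 of 9 libraries the best correlation was with the own number, a hint from the data. 65–79*SE against 65–79*PE gave 0 calls in each of the 3 settings tried.

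Signs changed in 14 named genes, none of them called with all libraries. Leaving out 1 library at a time gave log2 fold changes of -0.67 to 1.02 for Irf7, -0.57 to 0.84 for Ptgs2, -0.41 to 0.70 for Ifi44, -0.34 to 1.04 for Il23a, -0.21 to 0.55 for Ccl3, -0.20 to 0.45 for Lck, -0.17 to 1.04 for Ddx60, -0.074 to 0.29 for Msmo1, -0.17 to 0.039 for H2-DMa, -1.98 to 1.20 for mt-Rnr1, -2.29 to 0.051 for Gm15564, -2.10 to 0.013 for Lars2 and -0.14 to 0.36 for Ctsb. Irf7 was called lower without SE replicate 4 (-0.67). Without SE replicate 4 and with the block they were -0.64 for Irf7, -0.29 for Ptgs2, -0.42 for Ifi44, -0.15 for Il23a, -0.17 for Ccl3, -0.18 for Lck, -0.17 for Ddx60, -0.063 for Fth1 and 0.0088 for H2-DMa. Without that library and with the libraries compared alone they were -0.65 for Irf7, -0.56 for Ptgs2, -0.40 for Ifi44, -0.33 for Il23a, -0.20 for Ccl3, -0.18 for Lck, -0.16 for Ddx60, -0.036 for Msmo1, 0.053 for H2-DMa and 0.55 for mt-Rnr1. With the 17 libraries they were -0.66 for Irf7, -0.56 for Ptgs2, -0.40 for Ifi44, -0.33 for Il23a, -0.20 for Ccl3, -0.19 for Lck, -0.16 for Ddx60, -0.039 for Msmo1, 0.048 for H2-DMa and 0.55 for mt-Rnr1. With quality weights they were -0.56 for Irf7, -0.43 for Ptgs2, -0.28 for Ifi44 and Il23a, -0.15 for Ccl3, Lck and Ddx60. mt-Rnr1 was 0.0043 with RLE factors, 0.0029 with DESeq2, 0.014 with no filter and 0.0085 with the 6 libraries.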
